A study of Mus musculus with 25 samples.

Results

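The genes described here encode the enzymes that cut and trim prohormones into active peptides, their binding partners, and the granins that fill the same secretory granules. The set was chosen by name and holds 10 genes, which are Pcsk1, Pcsk2, Scg5, Pcsk1n, Cpe, Pam, Chga, Chgb, Scg2 and Scg3. They were taken from the 24439 genes of the RNA-seq table as the rows with those symbols, and from the 65053 consensus ATAC-seq peaks as the 80 peaks whose nearest annotated gene is one of them. In NCBIM37 (mm9) Pcsk1 lies at chr13:75227274-75269946, Pcsk2 at chr2:143371892-143642021, Scg5 at chr2:113616519-113669278, Pcsk1n at chrX:7496948-7501536 and Cpe at chr8:67071355-67171837. Pam lies at chr1:99691691-99992223, Chga at chr12:103793179-103803237, Chgb at chr2:132607014-132620815, Scg2 at chr1:79431244-79436665 and Scg3 at chr9:75491071-75531803. Nearest is a matter of distance to a transcription start site and does not show that a peak acts on that gene.

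Both lines come from mouse pancreatic islet tumours made by SV40 large T antigen. In αTC1 (clone 6, so a single clone) the glucagon promoter drives the oncogene, and in βTC6 the insulin promoter drives it. RNA-seq covered 3 replicates of each line. ATAC-seq covered 5 replicates of each line at 100000 cells a library, plus 9 mixtures running from 10% to 90% αTC1 cells, each sequenced once. No drug, gene deletion or time point separated the groups, but αTC1 was grown with less serum and with glucose added to its medium. βTC6 was grown with more serum and sodium pyruvate in another base medium, so that line and medium cannot be told apart. The study's methods do not give the glucose of the base media, so the added glucose does not mean that αTC1 had more. Nothing in the descriptions says whether replicates were separate cultures, and the p-values below therefore measure only the spread between these libraries, which may be technical.

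Peptide hormones are made as long precursors. Inside the regulated secretory pathway the convertases PC1/3 (Pcsk1) and PC2 (Pcsk2) cleave them after pairs of basic residues, carboxypeptidase E (Cpe) removes the basic residues left behind, and peptidylglycine alpha-amidating monooxygenase (Pam) amidates the ends that carry a glycine. PC2 needs the chaperone 7B2 (Scg5) to mature, and proSAAS (Pcsk1n) inhibits PC1/3. Alpha cells use PC2 to release glucagon from proglucagon, whereas PC1/3 makes GLP-1 from the same precursor and starts the conversion of proinsulin in beta cells. The granins (Chga, Chgb, Scg2 and Scg3) are acidic, calcium-binding granule proteins and are themselves precursors of peptides.

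Levels of marker genes were checked against the names of the lines. Summed over 9 beta-cell markers, FPKM (a read count scaled by transcript length and library size) lay between 47.6 and 49.6 in αTC1, whereas the βTC6 libraries gave 34965 to 51924. Ins1 and Pdx1 were listed at 0 in every αTC1 library. Over 8 alpha-cell markers the sums were 13430 to 15529 in αTC1, with the βTC6 libraries at 793 to 1902, where Gcg still reached 172 to 267 FPKM. Most of the αTC1 sum was Gcg, and most of the βTC6 sum was Ttr, at 544 to 1580 FPKM. Over the 7 markers other than Gcg the lines overlapped, at 1123 to 1334 FPKM in αTC1 and 621 to 1635 FPKM in βTC6. Of the 8, 6 were called higher in αTC1. Ttr was not called, and Gc was listed at 0 in αTC1 and at 7.58 to 12 FPKM in βTC6. The delta-cell hormone Sst was at 0 in αTC1 and at 207 to 325 FPKM in βTC6, while 4 acinar markers summed to no more than 0.66 FPKM in any library. The 4 delta markers together summed to 1242 to 1680 FPKM in αTC1, of which Rbp4 alone made 1240 to 1678, and to 424 to 508 in βTC6, 4 PP and epsilon markers to at most 0.97 and to 4.11 to 51.2, and 3 duct markers to 4.05 to 4.42 and at most 0.06. The 4 pan-endocrine markers were at 354 to 438 FPKM in αTC1 and 451 to 527 in βTC6. The part of these other cell type markers in the differences below was not tested. The RNA-seq libraries held 21954031 to 26033482 expected counts, and the pure ATAC-seq libraries 4397851 to 10374903 reads in peaks.

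Of the 9 members with a promoter in the RefSeq table, 4 carried a cyclic AMP response element (CRE) or a near match in the 250 bases before the start. The sequence TGACGTCA, a palindrome, stood in the promoters of Pcsk1, Chgb and Scg2, against 1.55% of all 32851 promoters of that length. The variant TGACGTAA stood in that of Chga, against 0.447% on either strand. Measured from the RefSeq start, the match ran from base -78 to base -71 in Pcsk1, from -72 to -65 in Chgb, from -68 to -61 in Scg2 and from -44 to -37 in Chga. The 30 bases around each are shown because they are the sequence feature that these promoters share, with the CRE in capitals, read in the direction of the gene from build NCBIM37 (mm9) at chr13:75227216-75227245 (plus strand), chr2:132607295-132607324 (plus strand), chr1:79436651-79436680 (minus strand) and chr12:103793096-103793125 (plus strand).
Pcsk1 site: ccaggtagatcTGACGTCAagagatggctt
Chgb site: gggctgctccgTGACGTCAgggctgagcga
Scg2 site: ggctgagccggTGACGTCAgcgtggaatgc
Chga site: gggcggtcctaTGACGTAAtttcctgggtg
Another 27-base site, in the first exon of Scg3 and under its promoter peak at chr9:75531750-75531776 on the minus strand, held the left and the right part of the RE1 element, which in other cells is bound by the repressor REST. Both parts are in capitals.
Scg3 site: TTCAGCACCcgcggggcGGACAGCGCC
Only 5 of 65053 windows of 300 bases at peak centres (0.00769%) held both parts on either strand. The left part without the right was also in the windows of the Chgb and Scg2 promoter peaks. With Scg3, 3 of the 80 member windows held the left part, against 0.395% of all. Rest itself was listed at 0 to 0.01 FPKM in αTC1 and at 0.31 to 0.37 FPKM in βTC6 and did not pass the filter on low values. The E-boxes CAGCTG (Pcsk2, Pam and Chga) and CATCTG (no member) were in 3 and 0 of the 9 promoters, against 13% and 14.4% of all, and the AP-1 sequence TGANTCA was in 1, that of Pcsk1n, against 6.75%. These are matches of letters, not measured binding. In the GENCODE annotation, whose starts differ from those of RefSeq, the Chgb site lies inside the gene, with 30 of its 30 bases in an annotated UTR, as are 15 of the 30 bases of the Scg2 site.

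RNA levels differed between the lines for 9 of the 10 members. Genes were tested with edgeR (quasi-likelihood test on rounded expected counts) when they reached 1 FPKM in all replicates of either line, and adjusted p-values are Benjamini-Hochberg values over the 12195 genes tested, with an FDR under 5% counted as called. All 10 members passed the filter, 9 of them in every library of both lines. Pcsk1 passed through βTC6 alone, which fixes its direction in the counts below. Of the members, 7 were called higher in βTC6 (38.7% of all genes tested were) and 2 in αTC1 (36.0% of all). A log2 fold change over 2 was reached by 4 members in βTC6 (10.2% of all genes) and by 0 in αTC1 in edgeR and in DESeq2, also at an unadjusted p, since neither called member exceeded that size (4.08% of all). The median of the absolute log2 fold change was 1.62 over the members and 0.61 over all genes tested. Since 74.6% of all genes were called in one direction or the other, that 9 members differed says little, and the sizes below carry the description. FPKM did not overlap between the lines at 9 of the 10 members, against 77.7% of all genes tested.

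**Figure D1:**
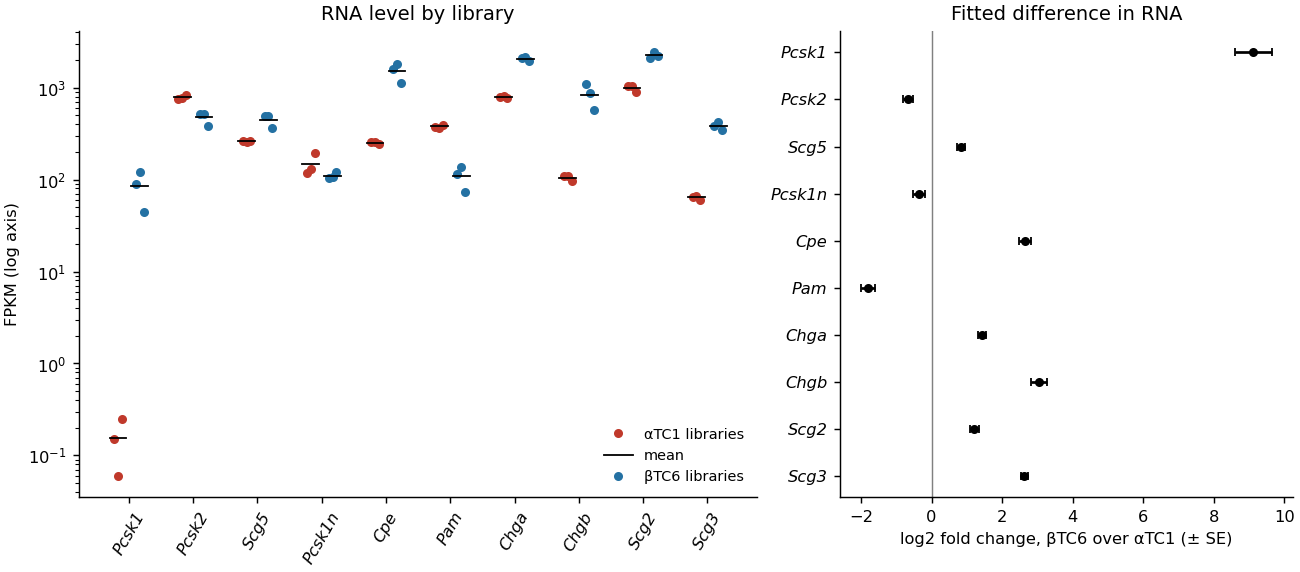
Left, FPKM of each gene in every RNA-seq library on a log axis (3 points and a mean line for each line, αTC1 in red and βTC6 in blue). Right, edgeR's log2 fold change of βTC6 over αTC1 with its standard error. Pcsk1 spans from under 1 to over 44 FPKM, Pcsk1n overlaps between the lines, and Pcsk2 and Pam lie to the left of 0.

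The convertases had log2 fold changes of opposite sign. Pcsk1 was at 0.15, 0.06 and 0.25 FPKM in the αTC1 libraries, on 9, 4 and 17 counts, and at 89.0, 121 and 44.5 FPKM in the βTC6 libraries. The lines did not overlap, with βTC6 replicate 3 the lowest of its line, and the log2 fold change was 9.13 ± 0.53 (SE, n = 3 a line, edgeR adjusted p = 5.73e-07). The filter fixed this direction, since Pcsk1 passed it through βTC6 alone. Pcsk2 read 753, 768 and 829.9 FPKM in αTC1 and 522, 522 and 382 FPKM in βTC6. All αTC1 libraries were above all βTC6 libraries, by 1.58-fold (log2 fold change -0.66 ± 0.14, edgeR adjusted p = 0.00244). With library sizes set by the spike-ins the call ended (log2 fold change -0.64, edgeR adjusted p = 0.269). The ratio of Pcsk2 to Pcsk1 FPKM was 5020, 12792 and 3320 in αTC1 and 5.86, 4.31 and 8.58 in βTC6. In αTC1 the denominator is a handful of counts, so that its ratio is known only to its order of size. Exons of Pcsk2 overlap antisense genes in the annotation, and so do those of Pcsk1n. The RNA kit marked strand, but RSEM was run by the authors with default parameters, which do not use it, so that reads of these genes and of their antisense partners cannot be told apart.

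Among the binding partners, the PC2 chaperone Scg5 rose in βTC6 whereas its client fell. Scg5 stood at 265, 255 and 263 FPKM in αTC1 against 487, 488 and 366 FPKM in βTC6 (log2 fold change 0.84 ± 0.12, edgeR adjusted p = 1.77e-04), a call that also ended with spike-in library sizes (log2 fold change 0.86, edgeR adjusted p = 0.114). The ranges were separate, and the ratio of Scg5 to Pcsk2 FPKM was 0.334 ± 0.018 in αTC1 and 0.942 ± 0.014 in βTC6 (SD, n = 3 each). The PC1/3 inhibitor Pcsk1n gave 117, 129.9 and 194 FPKM in αTC1 and 104, 106 and 121 FPKM in βTC6, so that the lines overlapped, with αTC1 replicate 3 far above the other two. Its log2 fold change of -0.35 ± 0.18 missed the threshold (edgeR adjusted p = 0.103), and it turned on single αTC1 libraries, at -0.50 without replicate 1 (edgeR adjusted p = 0.0204) and -0.086 without replicate 3 (edgeR adjusted p = 0.446). With replicate number as a block, or a spike-in factor as a covariate, Pcsk1n was called higher in αTC1.

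The trimming and amidating enzymes also split. Cpe was at 256, 256 and 245 FPKM in αTC1 and at 1592, 1830 and 1129 FPKM in βTC6, a 6.26-fold difference with no overlap (log2 fold change 2.65 ± 0.18, edgeR adjusted p = 1.44e-06). Pam showed 374, 365 and 397 FPKM in αTC1 and 116, 138 and 72.4 FPKM in βTC6, 3.48-fold lower and again without overlap (log2 fold change -1.80 ± 0.20, edgeR adjusted p = 4.16e-05). Without βTC6 replicate 2 the log2 fold change of Pam was -2.02, past the threshold of 2. Chromosome 1, which holds Pam and Scg2, had a median log2 fold change of -0.67 over its 693 genes tested and a median log2 difference of -0.61 over its 5355 peaks, against 0.0094 and 0.0011 over all genes and peaks. The part of that shift in the values of these genes was not tested.

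All 4 granins were higher in βTC6. Chgb, at 110.1, 109.7 and 96.2 FPKM in αTC1 and 1085, 869 and 568 FPKM in βTC6, had the largest difference among them (log2 fold change 3.05 ± 0.22, edgeR adjusted p = 2.12e-06). Scg3, which binds chromogranin A to granule membranes, was at 65.2, 66.8 and 60.2 FPKM in αTC1 and at 378, 419.6 and 347 FPKM in βTC6 (log2 fold change 2.63 ± 0.11, edgeR adjusted p = 7.15e-08). The more abundant granins differed by less. Chga read 784, 816 and 774 FPKM in αTC1 and 2097, 2148 and 1925 FPKM in βTC6 (log2 fold change 1.43 ± 0.10, edgeR adjusted p = 2.32e-06). Scg2 read 1054, 1043 and 907 FPKM in αTC1 and 2115, 2416 and 2215 FPKM in βTC6 (log2 fold change 1.22 ± 0.12, edgeR adjusted p = 1.64e-05). As with 77.7% of all genes tested, no granin overlapped between the lines. Together they took 0.425% ± 0.024 of the gene counts in αTC1 and 1.22% ± 0.097 in βTC6 (SD, n = 3 each), and all 10 members took 1.02% ± 0.0068 and 1.89% ± 0.23. βTC6 replicate 3 gave the lowest FPKM of its line for 8 of the 10 members, as it did for 33.6% of all genes tested. Leaving it out kept the counts at 7 and 2.

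In order of FPKM, which is per length of transcript, αTC1 ran Scg2, Chga, Pcsk2, Pam, Scg5, Cpe, Pcsk1n, Chgb, Scg3 and Pcsk1. Of these neighbours Chga and Pcsk2 overlapped, as did Scg5 and Cpe, and the other pairs were apart. The order in βTC6 was Scg2, Chga, Cpe, Chgb, Pcsk2, Scg5, Scg3, Pcsk1n, Pam and Pcsk1. Here Scg2 and Chga, Pcsk2 and Scg5, Scg5 and Scg3, Pcsk1n and Pam, and Pam and Pcsk1 overlapped. By mean FPKM, Scg2 ranked 34 of all genes in αTC1 and 12 in βTC6, Pcsk2 ranked 50 and 145, Cpe 262 and 24, and Pcsk1 13411 and 1003. The genes nearest to Pcsk1 in log2(FPKM + 1) over the 6 libraries, by Euclidean distance, were Akr1c19 (0.679), Oat (0.802) and Wipi1 (0.842), all at or below 0.043 FPKM on average in αTC1 and between 66.2 and 79.2 in βTC6. Those nearest to Pcsk2 were Slc38a5 (0.466), Maged1 (0.574) and Tuba1b (0.708).

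Accessibility was compared next. The deposited value of a peak is its normalized read count, and limma was run on log2(normalized read count + 1), so that differences at weak peaks are understated. The table holds no 0, and a peak at 1 read (between 0.0939 and 0.205 normalized reads in the pure libraries) cannot be told from one with none. Of the 80 member peaks, 28 were called more open in βTC6 (39.9% of all peaks were) and 38 in αTC1 (38.1% of all), and 14 were not called (78.0% of all peaks were called in one direction or the other, and 77.5% by edgeR on the recovered reads). With a log2 difference over 2, 13 were more open in βTC6 (12.9% of all) and 4 in αTC1 (5.38% of all). Values of the lines did not overlap at 59 of the 80 peaks, against 63.9% of all peaks. The member nearest to the threshold inside it had a log2 difference of 2.00 in size and the nearest outside it 1.99, so the last count turns on the scale. On the recovered reads, edgeR called 17 and 14 of the member peaks past that threshold, with 21.2% and 8.82% of all. Replicates 1 to 3 taken alone gave 13 and 3, and replicates 4 and 5 alone gave 12 and 10, against 12.5% and 4.82% of all peaks in the first subset and 14.3% and 6.71% in the second. In αTC1 these subsets stood apart, with a chi-square per peak of 2.05 to 2.16 among replicates 1 to 3, 4.72 between replicates 4 and 5, and 10.05 to 11.35 between the subsets.

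**Figure D2:**
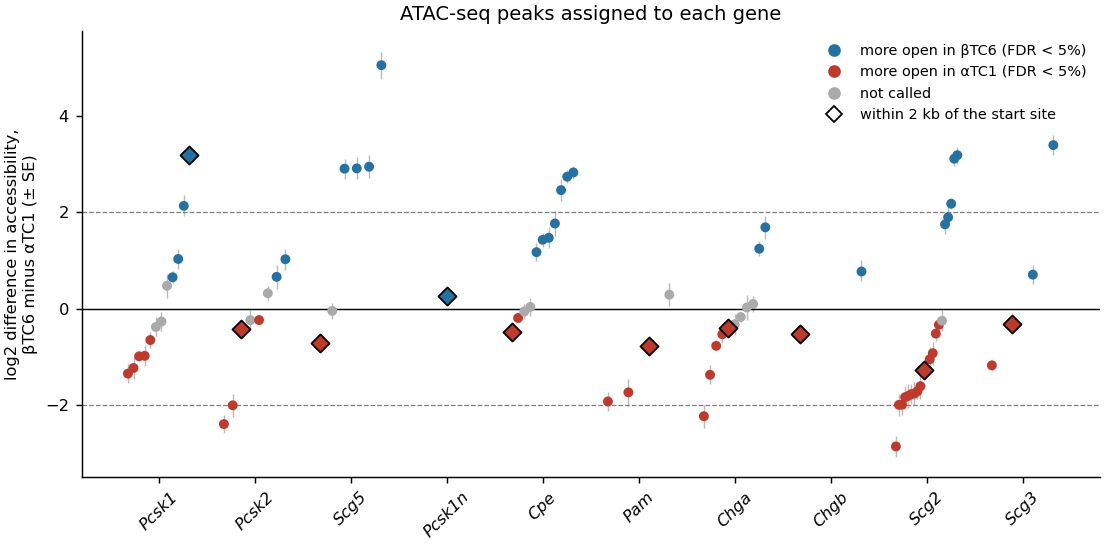
Log2 difference in accessibility (βTC6 minus αTC1, with its standard error from limma) of each of the 80 peaks, grouped by gene and sorted within it, with dashed lines at 2 and -2. Diamonds mark peaks within 2 kb of the start site, of which that of Pcsk1 alone lies beyond a dashed line, and circles mark the others.

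Of the 9 members called in RNA, the peak nearest to the start was called in the direction of the RNA at 3 and in the opposite direction at 6. Over the 7712 genes called in RNA that had a peak, these shares were 57.8% and 19.5%. After quantile normalization the members gave 2 and 2, with 5 not called, and all such genes 52.3% and 15.1%. Each gene had 1 peak within 2 kb of its start site. At Pcsk1 (chr13:75226936-75228506, over the first exon) the 5 αTC1 libraries read 4.34, 4.35, 4.66, 4.50 and 2.46 normalized reads and the 5 βTC6 libraries 41.2, 49.2, 40.7, 42.8 and 48.9. The ranges were far apart, at a log2 difference of 3.19 ± 0.15 (limma adjusted p = 3.49e-13), while 5.51% of all 14581 promoter peaks passed the same threshold in βTC6. Its promoter, which holds the CRE above, is given as the 219 bases that end before the annotated gene (chr13:75227055-75227273, plus strand), next to the 250 bases of the Pcsk2 promoter (chr2:143371619-143371868, plus strand), which was open in both lines. Capitals mark the CRE in the first and an E-box in the second, and the share of G and C was 45.7% and 82.4%.
Pcsk1 promoter: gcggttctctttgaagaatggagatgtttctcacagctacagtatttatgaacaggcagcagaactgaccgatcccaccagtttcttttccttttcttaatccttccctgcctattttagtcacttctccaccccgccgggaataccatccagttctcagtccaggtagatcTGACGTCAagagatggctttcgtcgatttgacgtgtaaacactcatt
Pcsk2 promoter: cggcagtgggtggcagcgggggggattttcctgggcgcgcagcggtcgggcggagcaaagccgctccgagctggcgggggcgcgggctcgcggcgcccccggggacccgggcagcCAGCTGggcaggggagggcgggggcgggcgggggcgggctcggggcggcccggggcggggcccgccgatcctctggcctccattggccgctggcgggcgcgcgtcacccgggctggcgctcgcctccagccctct
At the Pcsk2 peak (chr2:143370983-143372207, which also covers an exon of C630020P19Rik) the αTC1 libraries read 66.9, 63.4, 66.3, 68.0 and 57.1 and the βTC6 libraries 53.0, 39.0, 53.8, 53.8 and 39.8. The αTC1 values were all higher, by a log2 difference of -0.43 ± 0.11 (limma adjusted p = 9.36e-04). The difference was not there after quantile normalization (log2 difference 0.0017, limma adjusted p = 0.989).

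Promoters of 6 of the 7 genes with more RNA in βTC6 were called more open in αTC1. These were Scg5 (log2 difference -0.72 ± 0.13), Cpe (-0.48 ± 0.09), Chga (-0.40 ± 0.15), Chgb (-0.53 ± 0.09), Scg2 (-1.28 ± 0.13) and Scg3 (-0.32 ± 0.11), with limma adjusted p-values from 2.94e-08 at Scg2 to 0.0214 at Chga. After quantile normalization 2 of them still were, Scg5 and Scg2, at log2 differences of -0.38 and -1.08. The calls at Cpe, Chga, Chgb and Scg3 ended, at -0.036, -0.32, -0.17 and -0.19. At Scg2 (chr1:79436201-79437032) αTC1 read 51.8, 49.0, 43.9, 47.2 and 33.9 normalized reads and βTC6 22, 19.5, 19.5, 15.8 and 13.8, with no overlap. The Pam promoter was more open in αTC1 as well, at 107 ± 8.46 against 62.6 ± 5.38 (SD, n = 5 each). The lone Pcsk1n peak was slightly higher in βTC6, at 23.1 ± 1.39 against 19.3 ± 2.06, with a limma adjusted p = 0.0398. That call was lost under 10 of 19 alternatives, and αTC1 replicate 2, at 15.7, lay apart from the other αTC1 libraries at 19.8 to 21.1. Over all promoter peaks the median log2 difference was -0.31, and 52.3% were called more open in αTC1 and 23.4% in βTC6, so that many promoters were lower in βTC6. Whether the members stand apart from other genes in this was not tested. After quantile normalization the median over all promoters was -0.13, and 3 member promoters, with Pam the third, were still called more open in αTC1, against 39.5% of all. The log2 difference of the Pam promoter was then -0.28, beside -0.81 to -0.71 without that normalization and with single libraries left out.

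Distal peaks, more than 2 kb from the start site, were 70, and past a log2 difference of 2 there were 12 with higher values in βTC6 and 4 with higher values in αTC1 (15.1% and 6.53% of all distal peaks). At an FDR under 5% alone the order was the other way, with 26 called more open in βTC6 and 30 in αTC1, against 44.6% and 34.0% of all distal peaks. The median log2 difference was -0.18 over the distal member peaks and 0.18 over all distal peaks. The largest of these differences was at Scg5. At 17.9 kb inside the gene, in an intron (chr2:113650841-113651777), all 5 αTC1 libraries held 1 read, the lowest value of the table, and βTC6 libraries read 44.2, 52.5, 40.1, 51.1 and 13.6. Introns of the same gene held another 2 such peaks at 13.2 and 12.6 kb, with means of 7.81 ± 2.25 and 8.01 ± 2.76 in βTC6 (SD, n = 5). Against a floor of 3 reads in each αTC1 library, the 3 peaks were at least 94.4-fold, 18.3-fold and 18.8-fold higher in βTC6. Peaks with 1 read in every αTC1 library were 761 of 65053 (1.17%).

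On either side of that stretch, reads were present in αTC1. The Scg5 intron peak at 7.6 kb read 13.3 in αTC1 and 13.1 in βTC6 on average, with 83 to 116 reads in each αTC1 library, and was not called. The Scg5 promoter read 49.1 ± 3.59 in αTC1 and 30.0 ± 6.40 in βTC6, and RNA of the gene was at 255 to 265 FPKM in αTC1, as given above. Beyond the run, at 33.6 kb (chr2:113635304-113635949), αTC1 held 5 to 17 reads a library and the log2 difference was 2.94 ± 0.24. βTC6 replicate 5 had the lowest βTC6 value at 6 of the 6 Scg5 peaks, as it did at 26% of all peaks, and without it the log2 difference of the 17.9 kb peak was 5.38. The centre of that peak is shown, as the largest difference of the set, with the centre of the Scg3 peak described next and of the Pcsk2 peak with the largest statistic, all on the plus strand of NCBIM37 (chr2:113651160-113651459, chr9:75536072-75536371 and chr2:143225320-143225619). None of the 7 searched sequences occurs in these 3 windows, so no letter is in capitals.
Scg5 peak: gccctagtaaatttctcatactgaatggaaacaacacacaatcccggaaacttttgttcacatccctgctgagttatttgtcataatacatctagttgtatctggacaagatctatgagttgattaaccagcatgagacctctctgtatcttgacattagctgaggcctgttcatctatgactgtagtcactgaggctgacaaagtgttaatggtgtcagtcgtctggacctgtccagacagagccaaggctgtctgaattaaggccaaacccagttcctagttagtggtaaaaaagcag
Scg3 peak: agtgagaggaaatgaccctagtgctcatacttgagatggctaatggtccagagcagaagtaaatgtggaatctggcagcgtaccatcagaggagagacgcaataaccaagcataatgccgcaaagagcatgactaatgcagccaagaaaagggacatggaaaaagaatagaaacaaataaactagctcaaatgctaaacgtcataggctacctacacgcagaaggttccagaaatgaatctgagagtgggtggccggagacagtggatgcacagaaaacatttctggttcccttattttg
Pcsk2 peak: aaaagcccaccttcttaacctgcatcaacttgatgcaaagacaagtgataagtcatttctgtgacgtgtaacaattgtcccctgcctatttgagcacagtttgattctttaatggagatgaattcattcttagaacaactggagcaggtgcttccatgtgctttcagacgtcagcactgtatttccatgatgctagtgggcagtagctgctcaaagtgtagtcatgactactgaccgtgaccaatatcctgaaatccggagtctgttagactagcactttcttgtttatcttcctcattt

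**Figure D3:**
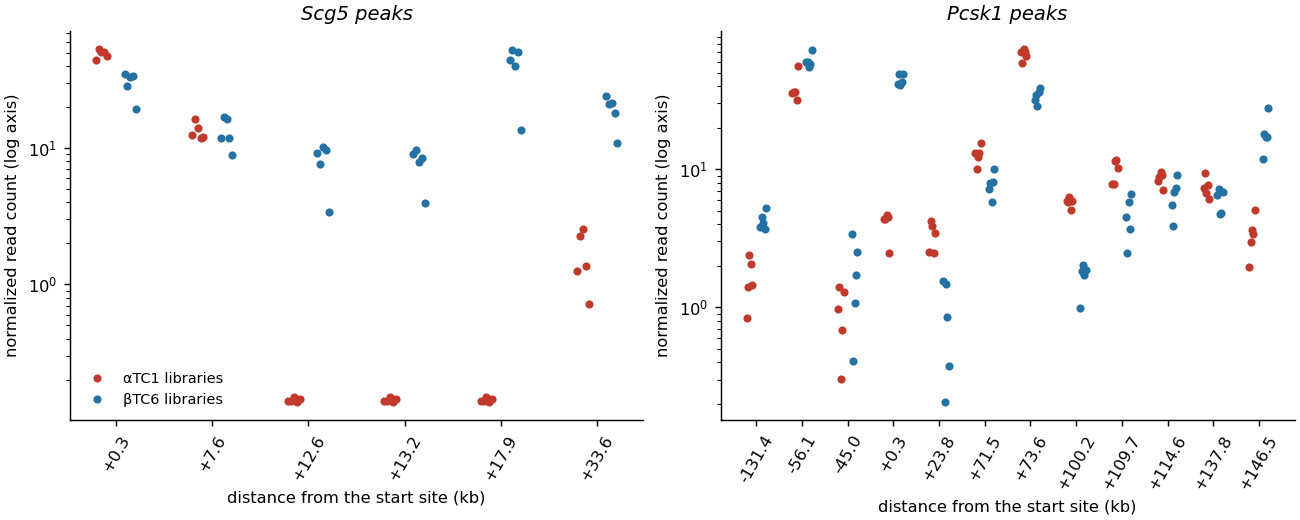
Normalized read count on a log axis in each of the 5 αTC1 (red) and 5 βTC6 (blue) libraries, for the peaks of Scg5 (left) and Pcsk1 (right) in order of distance from the start site. At Scg5 the αTC1 points of 3 intron peaks sit at the value of 1 read while the promoter and the 7.6 kb peak are open in both lines, and at Pcsk1 the promoter peak is the widest gap.

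Further peaks past the threshold in βTC6 stood near Scg3, Cpe and Pcsk1. Upstream of Scg3 by 4.4 kb (chr9:75535946-75536496) αTC1 read 0.70, 0.140, 0.751, 0.409 and 0.144 and βTC6 15.1, 12.1, 13.1, 13.6 and 14.9, without overlap (log2 difference 3.39 ± 0.21, limma adjusted p = 1.92e-11). Cpe had 10 intron peaks, of which 3 passed the threshold, at 68.1, 63.4 and 58.1 kb. At the first (chr8:67103437-67104113) αTC1 read 3.92, 4.64, 5.11, 4.64 and 3.90 and βTC6 37.3, 31.8, 37.6, 40.1 and 40.4, again apart (log2 difference 2.82 ± 0.13, limma adjusted p = 3.05e-13). Another Cpe intron peak, at 28.2 kb, was the most accessible of the gene, at 90.4 in αTC1 and 78.8 in βTC6. Pcsk1 had a second peak past the threshold, 146.5 kb from its start (3.40 ± 1.12 against 18.4 ± 5.74, log2 difference 2.13 ± 0.22). Of the 12 Pcsk1 peaks, 4 were called more open in βTC6 and 5 in αTC1, and 3 were not called.

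Scg2 combined both directions. It had 21 peaks, 15 called more open in αTC1 and 5 in βTC6. Past the threshold stood 3 in βTC6, at 33.5, 248.8 and 259 kb, and 1 in αTC1, at -95.9 kb. At 33.5 kb (chr1:79402744-79403521) αTC1 read 4.48, 3.51, 4.21, 3.68 and 2.31 and βTC6 36.5, 39.2, 35.7, 33.4 and 48.7 (log2 difference 3.11 ± 0.16, limma adjusted p = 1.17e-12). At -95.9 kb (chr1:79532074-79533061) the order was turned, with 18.2, 19.2, 18.9, 19.9 and 20.1 in αTC1 and 1.70, 2.26, 3.11, 0.713 and 1.78 in βTC6 (log2 difference -2.85 ± 0.21, limma adjusted p = 2.76e-10). No library of either line overlapped the other at either peak. The median log2 difference of the 21 peaks was -1.27, beside the chromosome 1 median given with Pam.

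The genes with more RNA in αTC1 had their largest statistics at peaks more open in that line. Upstream of Pcsk2 by 146.4 kb (chr2:143225046-143225892) αTC1 read 31.4, 26.3, 33.2, 30.7 and 28.6 and βTC6 6.39, 5.13, 5.68, 5.85 and 2.44 (log2 difference -2.39 ± 0.18, limma adjusted p = 2.82e-10). A second Pcsk2 peak, at -76.1 kb, fell from 8.42 ± 1.73 to 1.41 ± 0.755. In an intron of Pam at 15.0 kb (chr1:99977055-99977403) the values were 8.26, 8.43, 9.47, 9.42 and 6.93 in αTC1 and 1.56, 1.23, 1.76, 2.00 and 1.03 in βTC6 (log2 difference -1.92 ± 0.20). Both peaks kept the lines apart. Chga had its largest statistic inside the neighbouring gene Itpk1 (chr12:103824738-103825154), at 7.28 ± 1.19 in αTC1 and 0.849 ± 0.63 in βTC6, against the direction of its RNA, and Chgb had it at its promoter. For 7 of the 9 members called in RNA, the peak with the largest statistic was called in the direction of the RNA, whereas the peak nearest to the start was so for 3. Over the 7712 genes given above, the first share was 64.7%. The peak with the largest statistic is picked from as many peaks as a gene has, 21 at Scg2, so its count says nothing particular of the members.

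The mixtures were left out of the limma comparison, though their peaks could enter the consensus set, which merged all samples. They ask whether the differences scale with the share of each line. Each member's nearest peak and all those past the threshold were tested, 26 in all, by Pearson's r with the percentage of αTC1 cells (exact permutation test over 9 mixtures, two-sided, adjusted over the 26). Of the 17 peaks past the threshold, 17 followed composition in the direction of the pure lines, with r between 0.763 and 0.982 in size. Of the 10 nearest peaks, 6 followed it. By the same exact permutation test without adjustment, 97.7% of all 11911 peaks past the threshold and 48.4% of all promoter peaks followed composition in that direction, with 17 and 6 of the member peaks, so these counts are no result about the members. By Spearman's rho the 12.6 kb Scg5 peak did not follow composition (rho = -0.68, exact permutation adjusted p = 0.059). With reads scaled by library total in place of TMM, Pearson's r lost the Pcsk2 and Chgb promoters (exact permutation adjusted p = 0.063 and 0.11). That of Pcsk1n was gained (exact permutation adjusted p = 0.037). The Pcsk1 promoter read 43.2, 35.7, 26.2, 27.1, 29.5, 13.1, 13, 9.20 and 5.89 from 10% to 90% αTC1 (r = -0.96, Spearman's rho = -0.93, exact permutation adjusted p = 4.48e-04 and 0.0019). The 33.5 kb Scg2 peak went from 35.4 to 7.31 (r = -0.98) and the -146.4 kb Pcsk2 peak from 5.78 to 28.4 (r = 0.97).

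**Figure D4:**
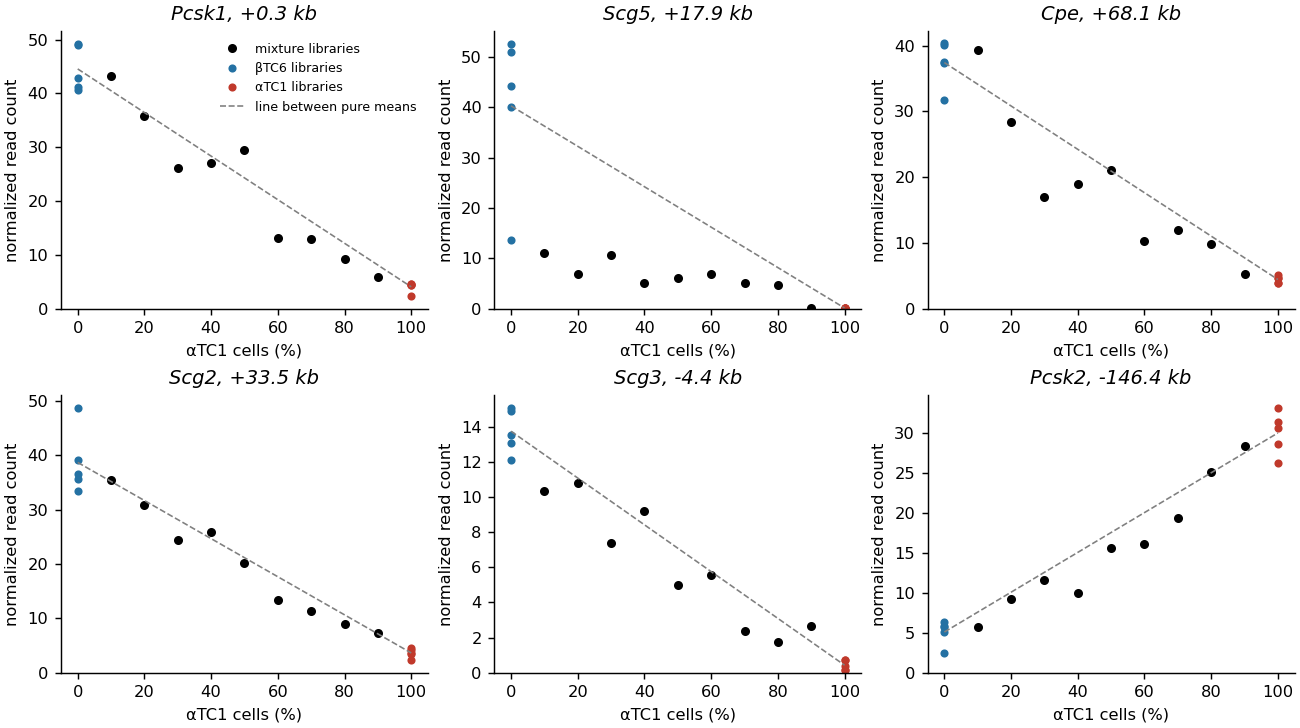
Normalized read count of 6 member peaks against the percentage of αTC1 cells, with the 9 mixtures in black, the 5 βTC6 libraries at 0 in blue, the 5 αTC1 libraries at 100 in red and a dashed line between the means of the pure lines. The mixtures lie farthest below the line at the 17.9 kb Scg5 peak, where the 10% mixture reads 11.

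On average over the mixtures, 23 of the 26 tested peaks lay below the line between the pure means, 14 of them among the 17 past the threshold. Over all peaks the share was 50.9% past the threshold and 76.1% at promoters. The 17.9 kb Scg5 peak had the largest such gap of the 26. Its values were 11, 6.99, 10.6, 5.08, 6.14, 6.85, 5.09, 4.69 and 0.203 from 10% to 90% αTC1, on average 13.9 below the line. The 10% mixture was thus lower than every pure βTC6 library, of which replicate 5 at 13.6 was the nearest. Its correlation held over the 9 mixtures (r = -0.84, rho = -0.87, exact permutation adjusted p = 0.0057 and 0.0073) but not without the 10% and 90% mixtures (r = -0.62, exact permutation adjusted p = 0.165). At the other intron peaks of the stretch, at 13.2 and 12.6 kb, mixtures were on average 2.08 and 2.45 below the line, with pure βTC6 means near 8. Without those end mixtures 18 of the 26 peaks followed composition.

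Other genes of the pathway were read from lists chosen with earlier results of these data known. Among 23 precursors that these enzymes cut, 17 were tested, of which 15 were higher in βTC6 and 1 in αTC1. Of the 15, 11 passed the filter through βTC6 alone, which fixes their direction. Among the 6 that passed it in both lines, 4 were higher in βTC6 and 1 in αTC1. Insulin (Ins2, 30081 FPKM on average) and Iapp (10765 FPKM) were at under 1 FPKM in αTC1, and Ins1 and Sst were listed at 0 there and at 2000.3 and 256 FPKM in βTC6. Proglucagon (Gcg) was the precursor higher in αTC1, at 12929 ± 1282 against 229 ± 50.4 FPKM (SD, n = 3 each). Of 11 other convertases and granule or lysosomal proteases tested, 7 were higher in βTC6 and 2 in αTC1, all past the filter in both lines and led by the membrane protease Bace2 (log2 fold change 5.75) and the lysosomal protease Ctsb (2.03). Other peptide-modifying enzymes numbered 11, with 7 higher in βTC6 and 1 in αTC1, of which Qpct and Cpa4 passed the filter through 1 line alone. Qpct, which forms amino-terminal pyroglutamate, had a log2 fold change of 7.91, and Ero1lb, an oxidase for disulfide bonds, one of 4.13. Cpd, a carboxypeptidase with the same substrate preference as Cpe, was at 8.98 and 33.5 FPKM, and Cpa4 had a log2 fold change of -4.84.

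Of 19 other granule proteins tested, 14 were higher in βTC6 and 3 in αTC1. Sytl4 (granuphilin, which docks granules) had 0.200 ± 0.053 FPKM in αTC1 and 80.6 ± 12.8 FPKM in βTC6, while the priming factor Cadps2 was listed at 0 in αTC1 and at 3.62 FPKM in βTC6. The amine transporter Slc18a1 and the calcium-binding Scgn had log2 fold changes of 4.54 and 2.05. Of 15 granule biogenesis and sorting genes, 10 were higher in βTC6 and 4 in αTC1, with Sorl1 (9.0), Ica1l (4.10), Ap1s2 (1.47) and Atp6ap2 (1.47) leading by log2 fold change. The 17 regulators tested divided 7 and 7. Pdx1 and Pax4 were listed at 0 in αTC1 and at 111 and 2.56 FPKM in βTC6, and Mafa had a log2 fold change of 7.52. Of the granule proteins, biogenesis genes and regulators, 3, 2 and 4 had passed the filter through βTC6 alone, and 2 regulators through αTC1 alone. Among those that passed in both lines, the counts were 11 and 3, 8 and 4, and 3 and 5. Each of these calls is edgeR's at an FDR under 5%, to be read against the 38.7% and 36.0% of all genes called in each direction.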

How the data were processed

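The authors aligned ATAC-seq reads to mm9 with BWA 0.7.9a, used Picard to drop duplicates and MACS2 2.1.0 to call peaks in each library, and counted reads over consensus peaks with DiffBind 2.2.5. The deposited signal is the TMM-normalized read count. Every value (100%, tolerance 0.01) was a whole multiple of 1 read, so reads were recovered for edgeR. RNA-seq was quantified by the authors with RSEM 1.2.12 and deposited as FPKM and expected counts. Tool versions follow the submitters' processing notes and the study's methods.

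Expected counts were rounded, 92 spike-ins removed, and genes with at least 1 FPKM in all replicates of either line tested with edgeR 4.0.16 (quasi-likelihood, TMM, R 4.3.3). TMM replaced the study's spike-in normalization by RUVSeq. Peaks were tested with limma 3.58.1 (trend) on log2(normalized read count + 1). Calls used an FDR under 5%, and DESeq2 1.42.0 was an alternative. Scripts were tested on simulated data. A ± is the SE of a log2 value and otherwise the SD. Errors and p-values from edgeR and limma rest on the spread between the libraries of a line.

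Samples were grouped by their labelled line and percentage. The members and gene lists were chosen with earlier results of these data known. Text names the members, for each its nearest peak and that with the largest statistic, up to 4 genes a list and the 3 genes nearest to Pcsk1 and Pcsk2. Other peaks and genes, the precursor Gcg among them, were named after their values were seen. Promoters came from RefSeq (GRCm38.p6, 9 of 10 members matched, Cpe not) and were placed in NCBIM37 by exact match, with GENCODE vM1 for annotation.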

Additional observations from a re-analysis of the deposited data

Results flagged for a closer look

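In 4 of 34 groups examined (17 peaks in each line) a single library stood apart from the rest of its line by Dixon's criterion at 95%, which chance meets in about 1 in 20 groups. At the Pcsk1 promoter, αTC1 replicate 5 was the lowest at 2.46 normalized reads, with the others between 4.34 and 4.66. At the Pcsk1n peak, αTC1 replicate 2 was the lowest at 15.7, with the others between 19.8 and 21.1. At the Chga peak inside Itpk1, αTC1 replicate 5 was the highest at 9.39, with the others between 6.46 and 7.02. At the Scg3 promoter, βTC6 replicate 2 was the lowest at 15.0, with the others between 20.8 and 21.9.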

How the results depend on the processing

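Counts of members called in RNA were 7 in βTC6 and 2 in αTC1, and spike-in library sizes gave 6 in βTC6, where Scg5 lost its call (edgeR adjusted p = 0.114), and 1 in αTC1, where Pcsk2 did (edgeR adjusted p = 0.269). Leaving out single libraries gave 7 to 7 and 2 to 3, and past a log2 fold change of 2 gave 4 to 4 and 0 to 1. Peaks past a log2 difference of 2 numbered 13 in βTC6 and 4 in αTC1. A pseudocount of 5 gave 6 and 0, and a pseudocount of 0.5 gave 11 in αTC1. In αTC1, edgeR on recovered reads gave 14, quantile normalization 12 and replicates 4 and 5 alone 10. Single libraries left out gave 12 to 14 and 3 to 6. Quantile normalization turned the Pcsk2 promoter to a log2 difference of 0.0017. It ended the calls at the Cpe, Chga, Chgb and Scg3 promoters, where log2 differences of -0.036, -0.32, -0.17 and -0.19 remained. All peaks past the threshold then split into 5655 and 5126 in place of 8409 and 3502. On all peaks, edgeR gave 13794 and 5739, a pseudocount of 5 gave 1668 and 819, and spike-in library sizes called 2132 and 1434 genes in place of 4715 and 4387. The spike-in factor as a covariate instead called 4767 and 4459 genes and 7 and 3 members, with Pcsk2 and Scg5 still called and Pcsk1n added. The Pcsk1n promoter call was lost under 10 settings. Causes of these changes were not tested.

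Replicate numbers did not pair the samples, with correlations of same-numbered deviations between -0.036 and 0.069, and not every sample correlated best with its own number. With the replicate block, 7 and 3 members were called in RNA (Pcsk1n joining, edgeR adjusted p = 0.0432), and 29 and 38 peaks, 13 and 4 of them past the threshold.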
